A study of Mus musculus with 6 samples.

Results

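The genes described are 9 transcription factors that commit mesenchymal cells to the osteoblast fate or regulate that step: Runx2, Sp7, Dlx3, Dlx5, Dlx6, Msx1, Msx2, Creb3l1 and Twist1. They were matched by gene name in the deposited annotation, and all 9 were found once each among 54532 genes. Their RNA was measured by RNA-seq in mouse bone marrow mesenchymal stem cells (mBMSCs), which are adherent marrow cells able to form osteoblasts. The cells were wild type primary cells, kept for 7 days in osteogenic induction medium, and the study asked how low-dose nickel alters gene expression in them. Of the 6 libraries, 3 (Ni) came from cultures that also received 0.1 μM nickel ion and 3 (controls) from cultures given vehicle. Both groups therefore carried the same osteogenic agents, given in the labels as dexamethasone (100 nM), ascorbic acid (50 μg/mL) and β-glycerophosphate (10 mM), so no library stands for undifferentiated cells. The paper's methods give a lower dexamethasone concentration than the labels. Strain, age and sex of the donor animals are not given in the sources used here. The design text calls the 3 cultures of a group independent biological replicates, without saying whether they came from separate animals, and p-values measure the spread between these cultures.

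Runx2, a runt-domain protein that binds DNA with its partner Cbfb, is required for osteoblasts to form at all. Sp7 (osterix), a zinc-finger protein of the Sp family, acts after Runx2 and is needed for preosteoblasts to mature. Dlx3, Dlx5, Dlx6, Msx1 and Msx2 are homeodomain proteins induced by BMP signalling, with Dlx proteins mostly activating and Msx proteins mostly repressing genes through related DNA sites. Creb3l1 (OASIS) is a membrane-bound bZIP factor of the endoplasmic reticulum that is released by the proteases encoded by Mbtps1 and Mbtps2 and activates type I collagen transcription in osteoblasts. Twist1 is a basic helix-loop-helix protein of early mesenchyme that pairs with E proteins and restrains Runx2.

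Library totals ranged from 16101033 to 18642504 counts. General stromal markers took from 1.58% to 2.28% of the counts in controls and from 2.27% to 2.46% in Ni libraries, and none of the 35 was at 0 in every library. Macrophage markers were abundant in these marrow cultures, with all 41 detected, at 3.97% to 4.39% of the counts in controls and 3.79% to 3.82% in Ni libraries. In bulk RNA, fewer cells of a type and less RNA per cell cannot be told apart. Control replicate 3 stood apart from its group: its mean distance (1 minus Pearson's r over log2 CPM) was 0.0220 to the other controls and 0.0131 to the Ni libraries. The fold changes of the tested factors and the medians of the main gene lists are therefore also given without it. Control replicate 3 was singled out from these data, and leaving out the control nearest to the Ni libraries favours a wider difference. The adjusted p-values without it are therefore no separate support. Ni replicate 2 was the Ni library nearest to the controls, at 0.0180, against 0.0159 to the other Ni libraries.

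RefSeq promoter windows (250 bases before to 50 after the transcription start, GRCm38.p6) were at hand for 4 of the 9 genes, Runx2, Msx1, Msx2 and Twist1. They were searched on both strands for 6 strings of letters: ACCACA (RUNX), TAATTA (homeodomain), CATCTG (an E-box), GGGCGG (the GC box), TGACGT (a cAMP response element core) and TATAAA. Runx2 held ACCACA 3 times, first at 80 bases before the start and then at 24 and 32 bases after it. Of 32851 promoter windows, 16.8% held ACCACA at least once and 0.183% held it 3 times or more. Msx2 held TAATTA 187 bases before its start (5.29% of windows hold it) and GGGCGG 160 bases before. Twist1 held TATAAA at 126, TGACGT at 97 and GGGCGG at 62 bases before its start, and Msx1 held GGGCGG at 72 bases before. The TGACGT and GGGCGG matches of Twist1 and the GGGCGG match of Msx1 were on the strand opposite to the gene. The other matches read along the gene, TAATTA being the same on both strands. GGGCGG was present in 35.7%, TATAAA in 13.6% and TGACGT in 7.51% of windows. CATCTG, present in 17.2% of windows, was in none of these 4, no string was in all 4, and no matches overlapped. The stretches below are shown because they hold the 3 Runx2 matches, the TAATTA match of Msx2 and the matches of Msx1 and Twist1, with the matched letters in capitals, read 5′ to 3′ along the gene.
Runx2, chr17:44814691-44814720, minus strand: tgtgaggtcacaaACCACAtgattctgtct
Runx2, chr17:44814586-44814615, minus strand: cctcacaaacaACCACAgaACCACAagtgc
Msx2, chr13:53472950-53472979, minus strand: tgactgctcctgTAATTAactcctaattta
Msx1, chr5:37824640-37824669, minus strand: ttctctccggacCCGCCCcctcgcgctctg
Twist1, chr12:33957535-33957620, plus strand: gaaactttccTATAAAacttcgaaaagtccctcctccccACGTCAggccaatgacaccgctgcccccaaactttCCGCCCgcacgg
The outermost start in the deposited annotation lies 170 bases upstream of the RefSeq start for Runx2 and 294 bases upstream for Msx2, so these stretches can be transcribed there. A match of letters is a description and not a binding site.

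Levels between genes were compared as FPKM, the authors' normalization for the length of a gene and the size of a library. In controls Creb3l1 was at 18.6 ± 4.79 FPKM (SD, n = 3), Sp7 at 13.5 ± 3.83 and Twist1 at 13.005 ± 4.71. The control ranges of Creb3l1 and Sp7 overlapped, although Creb3l1 was the higher in each of the 3 libraries, and those of Sp7 and Twist1 overlapped with Sp7 above Twist1 in 1 of the 3. Dlx5 followed at 3.52 ± 0.366 FPKM (SD, n = 3) and Runx2 at 2.82 ± 0.303, with Dlx5 above Runx2 in every control. Runx2, the factor named first in osteoblast commitment, thus had a lower level per length than Sp7, Creb3l1 and Twist1. The length used for Runx2, 8837 bases, joins the exons of all 13 annotated transcripts. Which of these were expressed was not tested, and shorter ones would raise its level per length and could change its place below Dlx5. Summed over the controls, Runx2 had 1280 counts, against 1075 for Twist1 and 408 for Dlx5. In control replicate 3 alone, Twist1 had more counts (495) than Runx2 (461). Dlx6 at 0.974 ± 0.402 FPKM (SD, n = 3), Dlx3 at 0.889 ± 0.495 and Msx1 at 0.884 ± 0.173 could not be ordered, their control ranges overlapping. Msx2 was at the limit of detection, with 0, 1 and 4 counts in the controls. In the Ni libraries the order of the means was the same except that Dlx3 stood above Dlx6. Among the 945 transcription factor genes tested, by mean control FPKM, Creb3l1 ranked 89, Sp7 128, Twist1 133, Dlx5 426, Runx2 490 and the other 3 between 726 and 742.

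**Figure D1:**
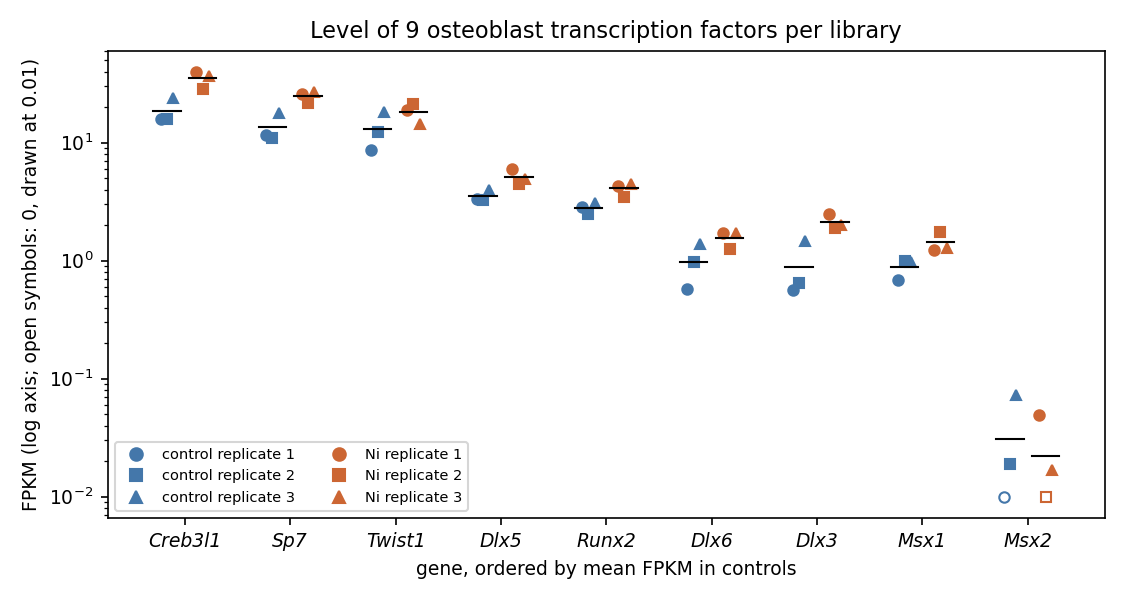
FPKM (log axis) of the 9 genes in each library, in the order of their mean in controls, with control libraries in blue, Ni libraries in orange, a symbol per replicate number and the mean as a bar. Creb3l1, Sp7 and Twist1 form the upper group, and Msx2 lies far below the rest with a library at 0 in each group.

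The comparison of Ni with control used edgeR's quasi-likelihood test on the raw counts, adjusted by Benjamini-Hochberg over the 14624 genes that passed its filter on low counts. Of the 9 factors 8 passed the filter, and Msx2 did not. None of the 8 was called at an adjusted p of 0.05, as was no gene in the table (0%). The adjusted p of the 8 lay from 0.212 to 0.448. All 8 had values above 0 on the log2 fold scale, from 0.48 (Twist1) to 1.26 (Dlx3) with 0.69 as the median, where 48.1% of all genes tested were above 0 and their median was -0.01. All but Twist1 were above 0.5, beside 7.67% of all genes tested. At an unadjusted p under 0.05, 6 of the 8 were higher in Ni and 0 lower, beside 7.59% and 5.83% of all genes tested. For the same 6, Runx2, Sp7, Dlx3, Dlx5, Msx1 and Creb3l1, all 3 Ni libraries lay above all 3 controls, which held for 7.97% of all genes tested. The 9 genes were chosen with earlier results of these data known, so these shares describe them and do not test them. DESeq2's Wald test on the same 6 libraries called 4 of the 8 at an adjusted p of 0.05 (Runx2, Sp7, Dlx3 and Creb3l1), beside 1.53% of its genes called as higher. In edgeR with no filter on low counts 5 of the 8 passed (those 4 and Twist1), beside 2.55%, and with replicate number as a block 3 passed (Runx2, Sp7 and Creb3l1), beside 1.55%. With 3 libraries against 3, the exact two-sided permutation test cannot give a p below 0.1, which is what it gave for each of the 6.

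Runx2 (ENSMUSG00000039153) lies on the minus strand of chromosome 17 of GRCm38 from 44495987 to 44814797. Its level in CPM (counts relative to the TMM-scaled library size, listed here and below in the order of replicates 1, 2 and 3) was 25.5, 22.2 and 27.7 for the controls, against 38.4, 30.9 and 40.0 for the Ni libraries. The groups did not overlap, but Ni replicate 2 was 1.12 times control replicate 3. Its log2 fold change was 0.54 (SE 0.13, adjusted p = 0.243 by edgeR, 0.0478 by DESeq2), or 1.45-fold. Without control replicate 3 it was 0.62 (adjusted p = 0.00884 by edgeR). Of its 13 annotated transcripts and 8837 exon bases, 1859 bases are coding, and 519 noncoding bases are shared with Runx2os1 on the other strand. Runx2os1 held 9 counts over all 6 libraries. Whether strand was used in counting is not given in the sources used here.

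Sp7 (ENSMUSG00000060284) is on the minus strand of chromosome 15 from 102356606 to 102367182, and no exon base is shared with another gene. It had 40.0, 37.3 and 61.4 CPM in the controls and 87.9, 74.4 and 92.5 CPM in the Ni libraries. Control replicate 3 lay between the other controls and the Ni libraries, at 59.2% of that distance on the log2 scale. The log2 fold change of Sp7 was 0.88 (SE 0.18, adjusted p = 0.212 by edgeR, 0.00116 by DESeq2), or 1.84-fold, and 1.14 without control replicate 3 (adjusted p = 0.000103 by edgeR). The SD was 11.1% of the mean in the Ni libraries and 28.5% in the controls.

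Creb3l1 (ENSMUSG00000027230), on the minus strand of chromosome 2 from 91982328 to 92024502, had the profile closest to that of Sp7 among the 8. Its values were 41.5, 41.7 and 63.5 CPM in the controls and 104, 74.8 and 96.6 CPM in the Ni libraries. Every Ni library lay above every control, and Ni replicate 2 was again the lowest of its group. The log2 fold change was 0.91 (SE 0.19, adjusted p = 0.212 by edgeR, 0.000709 by DESeq2), or 1.88-fold, and 1.15 without control replicate 3 (adjusted p = 0.000228 by edgeR). By unadjusted p, Creb3l1 and Sp7 ranked 66 and 70 among all genes tested and 5 and 6 among the transcription factor genes.

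Dlx3 (ENSMUSG00000001510), on the plus strand of chromosome 11 from 95120119 to 95125296, had the highest log2 fold change of the 8, on low counts. It was counted 27, 27 and 64 times in the controls and 120, 86 and 96 times in the Ni libraries. Those counts correspond to 1.48, 1.70 and 3.84 CPM against 6.51, 4.95 and 5.30 CPM. The groups did not overlap, and control replicate 3 was more than 2 times either of the other controls. The log2 fold change was 1.26 (SE 0.35, adjusted p = 0.275 by edgeR, 0.0435 by DESeq2), or 2.39-fold, and 1.82 without control replicate 3 (adjusted p = 0.000898 by edgeR).

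Dlx5 (ENSMUSG00000029755) and Dlx6 (ENSMUSG00000029754) are neighbours on chromosome 6, from 6877805 to 6882085 on the minus strand and from 6863334 to 6868568 on the plus strand, with 9236 bases between them and their 3′ ends facing each other. Dlx5 had 7.65, 7.43 and 8.998 CPM in the controls and 13.6, 10.1 and 11.2 CPM in the Ni libraries, without overlap. Its log2 fold change was 0.54 (SE 0.17, adjusted p = 0.305 by edgeR, 0.176 by DESeq2), and 0.63 without control replicate 3 (adjusted p = 0.0371 by edgeR). Dlx6 had 1.37, 2.33 and 3.30 CPM in the controls and 4.13, 2.99 and 4.09 CPM in the Ni libraries, so that control replicate 3 lay above Ni replicate 2. Its log2 fold change was 0.68 (SE 0.33, adjusted p = 0.398 by edgeR), and 1.03 without control replicate 3 (adjusted p = 0.0542 by edgeR). Dlx6 shares 104 exon bases, all of them coding, with Dlx6os2 on the other strand, which held 1 count over all libraries. Dlx6os1, the long noncoding RNA on the minus strand across this locus, was counted 18, 28 and 18 times in the controls and 27, 23 and 26 times in the Ni libraries, with overlapping groups (log2 fold change 0.15, SE 0.36).

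Msx1 (ENSMUSG00000048450), on the minus strand of chromosome 5 from 37820485 to 37824583, had 2.13, 3.09 and 3.06 CPM in the controls and 3.85, 5.53 and 3.98 CPM in the Ni libraries. The groups did not overlap, and Ni replicate 2, the lowest Ni library for 6 of the 8 factors, was the highest for Msx1. Its log2 fold change was 0.69 (SE 0.26, adjusted p = 0.334 by edgeR, 0.290 by DESeq2), and 0.78 without control replicate 3 (adjusted p = 0.0983 by edgeR). Msx2 (ENSMUSG00000021469), on the minus strand of chromosome 13 from 53466884 to 53473074, was counted 0, 1 and 4 times in the controls and 3, 0 and 1 times in the Ni libraries. With sums of 5 and 4 counts, no difference of Msx2 was detectable at this depth.

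Twist1 (ENSMUSG00000035799), on the plus strand of chromosome 12 from 33957671 to 33959829, had the least separated groups of the 8. Its values were 14.3, 20.03 and 29.7 CPM in the controls and 30.7, 34.9 and 23.6 CPM in the Ni libraries. Control replicate 3 was above Ni replicate 3 and close to Ni replicate 1. The log2 fold change was 0.48 (SE 0.26, adjusted p = 0.448 by edgeR, 0.363 by DESeq2), and 0.80 without control replicate 3 (adjusted p = 0.0146 by edgeR).

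**Figure D2:**
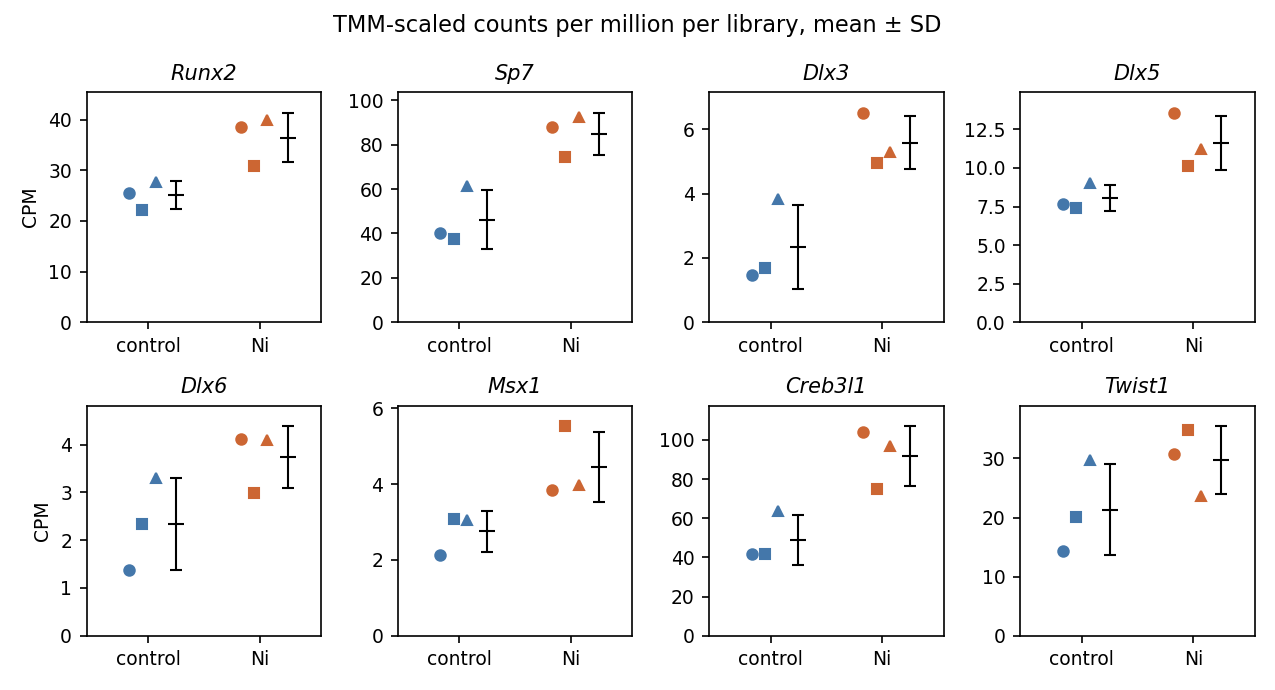
CPM of the 8 tested genes in the 3 control (blue) and 3 Ni (orange) libraries, with circles, squares and triangles for replicates 1, 2 and 3 and bars for the mean ± SD, each panel on its own axis from 0. The groups overlap only for Dlx6 and Twist1, and control replicate 3 is the highest control for all but Msx1.

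Control replicate 3 was the highest control for 7 of the 8 factors, and Ni replicate 2 the lowest Ni library for 6 of the 8, beside 39.4% and 39.4% of all genes tested. Relative to the mean of the controls, the mean log2 CPM of the 8 factors was -0.30, -0.10 and 0.40 for the controls, and it was 0.87, 0.67 and 0.76 for the Ni libraries. Every Ni library was therefore above control replicate 3 in this mean as well. Without control replicate 3, 6 of the 8 were called at an adjusted p of 0.05 by edgeR (all but Dlx6 and Msx1), beside 8.69% of the genes tested in that fit called as higher. Leaving out any other library gave 0 calls among the 8.

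General stromal markers had a median log2 fold change of 0.31 over 35 genes (14 higher and 1 lower at an unadjusted p below 0.05), so the factors were also set against them. This median was 0.58 without control replicate 3, with 22 of the 35 higher and 2 lower at an adjusted p of 0.05 by edgeR. Per 10000 counts on those markers, Sp7 stood at 24.3, 23.2 and 27.05 in the controls and 35.3, 32.9 and 38.0 in the Ni libraries. Creb3l1 stood at 25.2, 25.9 and 28.0 on this scale in the controls and 41.7, 33.0 and 39.7 in the Ni libraries. The values of Dlx3 were 0.896, 1.06 and 1.69 in the controls and 2.62, 2.19 and 2.18 in the Ni libraries. For these 3 genes the groups stayed apart, which held for 2.18% of all genes tested on this scale. Runx2 stood at 15.5, 13.8 and 12.2 per 10000 stromal counts in the controls and 15.4, 13.6 and 16.4 in the Ni libraries, and the groups overlapped. They also overlapped for Dlx5, Dlx6, Msx1 and Twist1. In an edgeR fit scaled to the stromal markers the log2 fold changes were 0.92 for Dlx3, 0.53 for Creb3l1 and 0.51 for Sp7, against 0.13 for Twist1 and 0.14 for both Runx2 and Dlx5, and none of the 8 was called, the adjusted p being 0.0645, 0.0728 and 0.0767 for the first 3. This scaling moved the median of all genes to -0.42 and that of the 8 factors to 0.31. Relative to the median of all genes the 8 factors had a median of 0.73. That subtraction largely reverses the scaling, so 0.73 does not set the factors against the stromal markers.

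**Figure D3:**
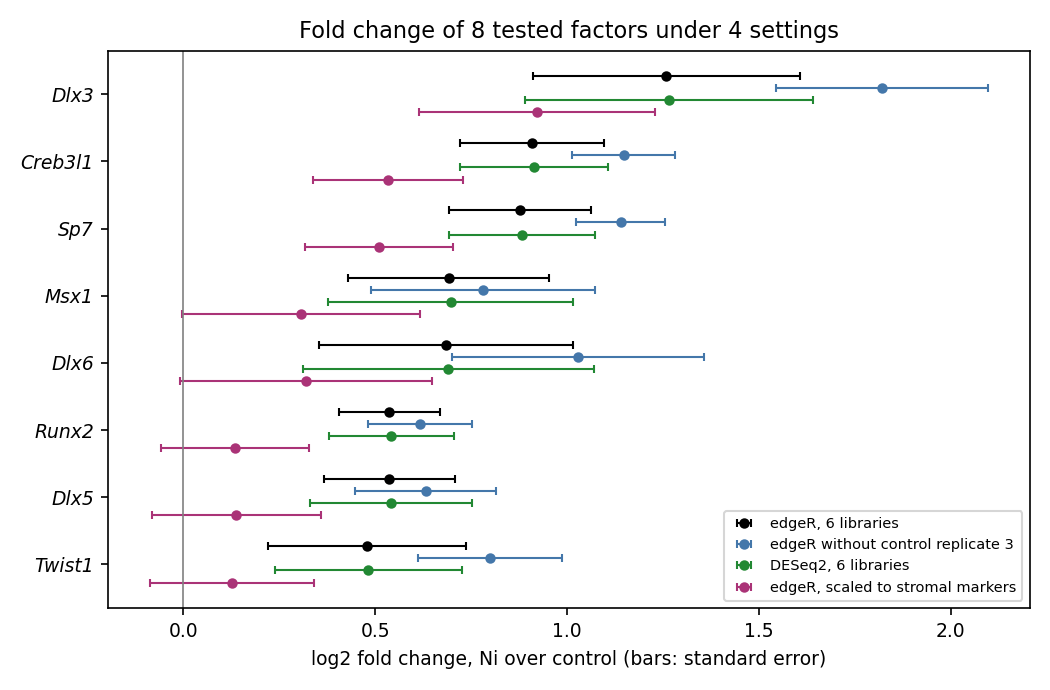
Log2 fold change (Ni over control) with its SE for the 8 tested genes, from edgeR on all 6 libraries, edgeR without control replicate 3, DESeq2 on all 6, and edgeR scaled to the counts on general stromal markers. All values are above 0, the stromal scaling gives the lowest value for each gene, and leaving out control replicate 3 the highest.

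Ratios between factors within a library do not depend on how the libraries were scaled, and 4 were computed. The log2 ratio of Sp7 to Runx2 was 0.65, 0.75 and 1.15 in the controls and 1.19, 1.27 and 1.21 in the Ni libraries, a difference of 0.37. The groups did not overlap, although control replicate 3 was within 0.05 of the lowest Ni library. The log2 ratio of Dlx3 to Dlx5 was -2.37, -2.13 and -1.23 in the controls and -1.06, -1.03 and -1.08 in the Ni libraries, a difference of 0.85, again without overlap. For both ratios the exact two-sided permutation test gave p = 0.1, the smallest it can give, and 0.2 adjusted over the 4 ratios. The ratio of Sp7 to Twist1 (difference 0.38, exact permutation p = 0.2, adjusted 0.267) and of Dlx5 to Dlx6 (difference -0.22, exact permutation p = 0.9, adjusted 0.9) overlapped between the groups. No ratio was taken of Msx2 to Msx1, Msx2 being at 0 in a library of each group.

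**Figure D4:**
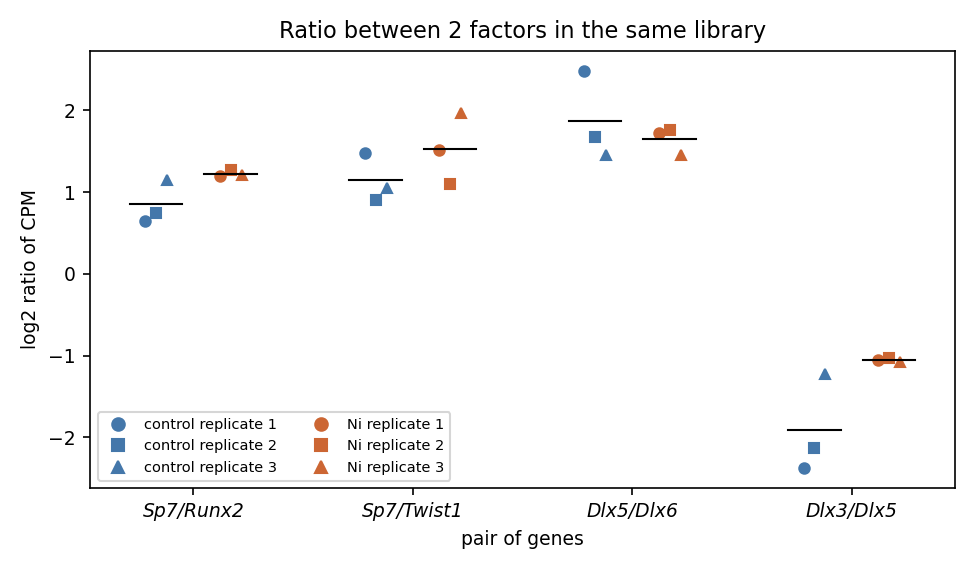
Log2 ratio of the CPM of 2 genes in the same library, with control libraries in blue, Ni libraries in orange and group means as bars. The 3 Ni libraries lie close together for Sp7/Runx2 and Dlx3/Dlx5, above all 3 controls, with control replicate 3 the control nearest to them.

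Similarity of profiles was measured as the root mean square difference of log2 CPM over the 6 libraries, each gene centred on its mean. Sp7 and Creb3l1 were the closest pair of the 8 factors, at 0.0794, followed by Runx2 and Dlx5 at 0.108, whereas Runx2 and Dlx3 were the farthest apart at 0.543. Among 9478 other genes with a mean of at least 10 CPM, the 5 nearest to Sp7 were Col5a2, a chain of type V collagen, at 0.0496, Srpx2 at 0.0574, Zfp365 at 0.0653, Praf2 at 0.0694 and Tcaf2 at 0.0716, where the median of all was 0.537. The 5 nearest to Runx2 were Serpine2, a secreted serine protease inhibitor, at 0.0423, Gm13394 at 0.0492, Birc5 (survivin) at 0.0494, Col4a5, a basement membrane collagen chain, at 0.0510 and Ptprd at 0.0576, with a median of 0.334. The 6 libraries shared by all these values are few, and many genes follow the same order of libraries.

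Of 937 other transcription factor genes tested, 487 had values above 0, the median log2 fold change being 0.01, and at an unadjusted p under 0.05 there were 68 higher (7.26%) and 36 lower (3.84%). By log2 fold change, Dlx3 ranked 6, Creb3l1 12 and Sp7 15 among the 945. Of 64 other homeobox genes tested, 41 had a positive value, with a median of 0.21, and 12 were higher and 1 lower (unadjusted p under 0.05). Alx1, a craniofacial homeobox factor, had a log2 fold change of 1.29 (SE 0.47). Its level was low, with means of 0.376 CPM in controls and 0.925 CPM in Ni libraries. Meis3, at the other end, was at -0.43 (SE 0.20), and both were chosen for naming after their values were seen. The 1 lower gene was Pbx2 at -0.36. Relatives of the Dlx and Twist genes were scarcely counted: Dlx1 had 4 counts summed over the controls and 2 over the Ni libraries, Dlx2 had 13 and 6, Dlx4 had 25 and 11, and Twist2 had 16 and 5.

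No gene of the partner lists passed an adjusted p of 0.05 in edgeR on all 6 libraries. Cbfb, the DNA-binding partner of Runx proteins, had 128 ± 3.88 CPM (SD, n = 3) in controls and 133 ± 12.4 CPM in Ni libraries. Runx1, the blood-forming relative of Runx2, had 103 ± 5.86 CPM (SD, n = 3) in controls and 104 ± 1.94 CPM in Ni libraries, and Runx3 had 16.8 ± 7.71 and 25.7 ± 0.250 CPM with overlapping groups. Of 21 Runx2 partners and relatives tested, 5 were higher and 1 lower (unadjusted p under 0.05), with a median log2 fold change of 0.06. In the edgeR fit without control replicate 3 their median was 0.07, and 6 were called as higher and 2 as lower at an adjusted p of 0.05. The lowest of these partners with all 6 libraries was Tle1, a corepressor, at -0.46 (SE 0.23). Atf4, a bZIP factor of late osteoblasts, was at 0.04 (SE 0.09).

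For Twist1, the E proteins Tcf3, Tcf4 and Tcf12 had log2 fold changes of 0.01, 0.01 and 0.24. The Id proteins bind E proteins and keep them off DNA. Id1, a BMP target, had 15.6 ± 1.98 CPM (SD, n = 3) in controls and 24.2 ± 1.67 CPM in Ni libraries (log2 fold change 0.63, SE 0.13, adjusted p = 0.208 by edgeR, 0.0144 by DESeq2). Id3 was at 0.42 (SE 0.12), Id2 at -0.18 (SE 0.11) and Id4 at -0.41 (SE 0.18). Of the 7 genes of this list tested, 2 were higher and 1 lower (unadjusted p under 0.05). Without control replicate 3, edgeR called 2 of the 7 as higher and 2 as lower at an adjusted p of 0.05, and the median was 0.05 in place of 0.01. For Creb3l1, none of the 6 relatives and processing proteases tested had an unadjusted p under 0.05, with a median of 0.07. Its close relative Creb3l2 had 47.6 ± 2.25 CPM (SD, n = 3) in controls and 48.7 ± 2.62 CPM in Ni libraries, and the protease genes Mbtps1 and Mbtps2 were each at 0.07 (SE 0.09 and 0.13). Creb3l3 was the highest of this list at 0.23 (SE 0.31).

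Of 71 other skeletal and stromal transcription factors tested, 21 were higher and 2 lower (unadjusted p under 0.05), with a median log2 fold change of 0.14. Without control replicate 3 the median was 0.24, and edgeR called 16 as higher and 3 as lower at an adjusted p of 0.05. DESeq2 called 3 of them, Tcf7, Klf4 and Shox2, which were chosen for naming after their values were seen. Sox9, the chondrocyte factor, had 3.89 ± 0.965 CPM (SD, n = 3) in controls and 7.25 ± 1.48 CPM in Ni libraries (log2 fold change 0.90, SE 0.25, adjusted p = 0.273 by edgeR), without overlap. Mef2c, a MADS-box factor active in osteocytes, was at 0.46 (SE 0.17) with overlapping groups. The ends of this list were Hey2 at 1.61 and Lef1 at -2.12 (SE 0.54 and 0.58), both under 1 CPM. Of 7 adipocyte transcription factors tested, none had an unadjusted p under 0.05, with a median of -0.13. Pparg, which directs the adipocyte fate, was at -0.13 (SE 0.12) and Cebpa at 0.13 (SE 0.10), the highest, with Cebpd the lowest at -0.17.

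The list of matrix and mineralization genes had a median log2 fold change of 0.86 over 38 tested, and DESeq2 called 23 as higher. At an unadjusted p under 0.05 in edgeR, 33 were higher and 1 lower. Whether Runx2, Sp7 or Creb3l1 act on the genes of this list was not tested. Col1a1 and Col1a2, the chains of type I collagen, were at 1.13 and 0.97 (SE 0.24 and 0.21), and Alpl, alkaline phosphatase, at 1.07 (SE 0.26). Bone sialoprotein (Ibsp) was at 1.70 (SE 0.51), Phex at 1.47 (SE 0.43) and the osteocyte matrix gene Dmp1 at 0.98 (SE 0.20). Osteocalcin, encoded by Bglap and its near-identical copy Bglap2, was at 1.68 and 1.69 (SE 0.47 and 0.55), values that are uncertain because reads could be split between the copies. For these 8 genes, as for Sp7, every Ni library lay above every control, which held for 7.97% of all genes tested. The lowest Ni library was only 1.006 times the highest control for Phex, 1.07 times for Bglap and 1.09 times for Ibsp. DESeq2 called Col1a1, Col1a2, Alpl, Phex and Dmp1 but not Bglap, Bglap2 or Ibsp (adjusted p = 0.0908, 0.242 and 0.148 by DESeq2). Spp1 (osteopontin) and Mmp13 were at 0.63 and 0.51 (SE 0.27 and 0.23), with overlapping groups. The ends of the list were Col11a2 at 1.94 (SE 0.39) and Tnfsf11, which encodes the osteoclast-inducing ligand RANKL, at -0.83 (SE 0.25). Without control replicate 3 the median was 1.16, and on the stromal scale 0.50.

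Of 44 BMP, Wnt and FGF signalling genes tested, inhibitors among them, 12 were higher and 2 lower (unadjusted p under 0.05), with a median of 0.18. Leaving out control replicate 3 gave a median of 0.27, with 15 called as higher and 3 as lower at an adjusted p of 0.05 by edgeR. Bmp2 had 19.9 ± 2.71 CPM (SD, n = 3) in controls and 20.3 ± 4.71 CPM in Ni libraries. Bmp4 had 59.3 ± 3.75 CPM (SD, n = 3) in controls and 46.5 ± 3.46 CPM in Ni libraries, with every Ni library below every control (6.71% of all genes tested) and a log2 fold change of -0.35 (SE 0.10, adjusted p = 0.289 by edgeR). The BMP-induced inhibitors Smad6 and Smad7 were at 0.34 and 0.36 (SE 0.12 and 0.18). Wif1, a secreted Wnt inhibitor, was the highest at 1.29 and Bmp6 the lowest at -1.35 (SE 0.39 and 0.46). DESeq2 called 3 of this list, Fgfr1, Wnt10b and Wif1, the first 2 of which were chosen for naming after their values were seen.

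**Figure D5:**
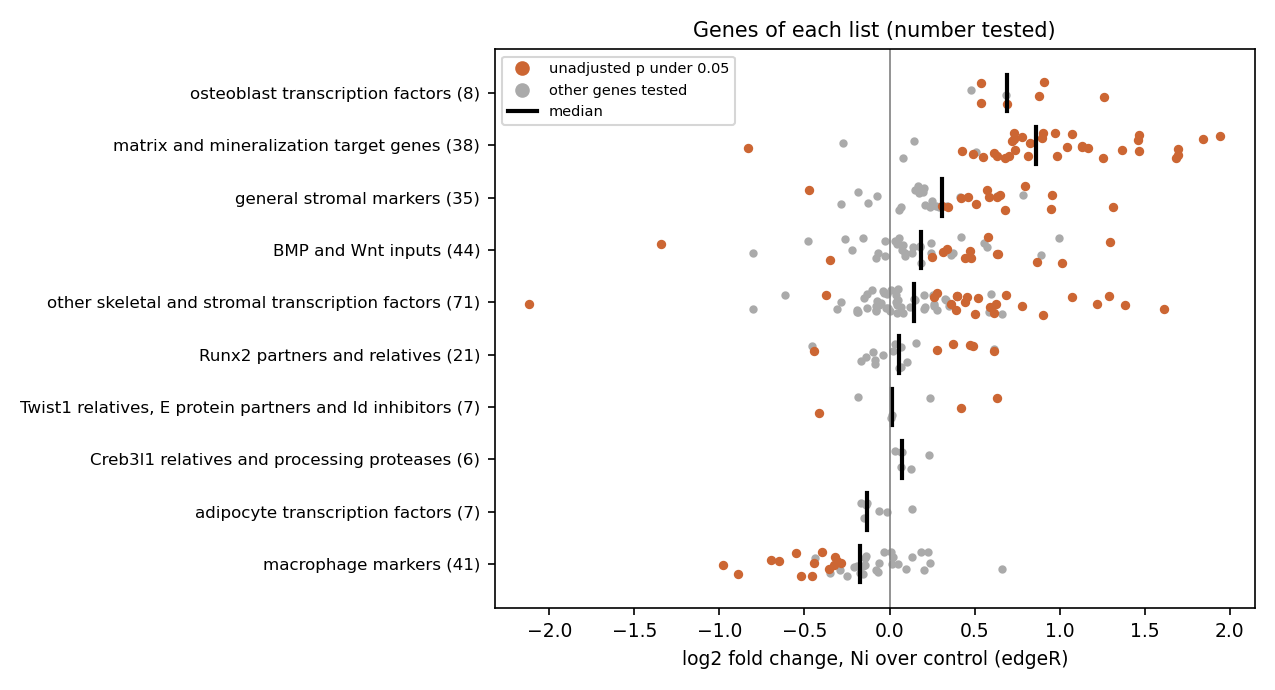
Log2 fold change (Ni over control, edgeR) of each tested gene of 10 lists, with the number tested in parentheses, genes with an unadjusted p under 0.05 in orange and the list median as a black bar. All 8 osteoblast transcription factors and 36 of the 38 matrix and mineralization genes sit to the right of 0, with medians of 0.69 and 0.86, while the Runx2, Twist1 and Creb3l1 partner lists have medians of 0.06, 0.01 and 0.07.

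Markers of other cell types were summed per library. Macrophage markers had a median log2 fold change of -0.17 over 41 genes, with 0 higher and 14 lower (unadjusted p under 0.05), the ends being Lyz1 at 0.66 and Aif1 at -0.98. The macrophage median without control replicate 3 was -0.19, with 4 called as higher and 17 as lower at an adjusted p of 0.05 by edgeR. Their summed level was 39429 to 43709 CPM in controls, highest in control replicate 3, and 37972 to 38363 CPM in Ni libraries. Osteoclast markers summed to 747 to 1438 CPM in controls and 692 to 777 CPM in Ni libraries, and adipocyte markers to 909 to 1451 and 749 to 1043 CPM. Cartilage markers summed to 148 to 245 CPM in controls and 284 to 332 CPM in Ni libraries, with Col9a1 and Epyc at 0 in every library and 4 of the 5 tested genes higher at an unadjusted p under 0.05. Endothelial markers (53.9 to 84.5 CPM in controls, 51.2 to 57.4 in Ni libraries), B cell and plasma cell markers (55.4 to 80.1 and 53.2 to 63.0 CPM) and neutrophil granule markers (3.97 to 10.6 and 6.08 to 6.68 CPM) were low, with Ms4a1, Mzb1, Ltf, Ngp and S100a9 at 0. The part of cell composition in the values of the 9 factors was not tested. Scaling to the stromal markers cannot separate it from changes of the marker genes themselves. Their log2 fold changes ranged from 1.31 (Postn, SE 0.38) to -0.47 (Cxcl12, SE 0.14).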

How the data were processed

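The authors deposited raw whole-number counts per gene, without normalization, and FPKM values of the same genes, which equal those counts divided by gene length and a factor per library (largest relative deviation 3.29e-07). The deposited annotation gives positions, lengths and factor families. The build is GRCm38 per the labels. The aligner, counting tool and strand setting are not given in the sources used here.

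Counts were filtered by filterByExpr, scaled by TMM and tested with the robust quasi-likelihood test of edgeR 4.0.16 (R 4.3.3) on all 6 libraries, Ni against control, with Benjamini-Hochberg adjustment over 14624 genes. CPM divides counts by TMM-scaled library sizes. Standard errors are the coefficient over the root of F. DESeq2 1.42.0, limma 3.58.1 on log2(FPKM + 1) or log2(FPKM + 0.1) (fold changes on that scale understate low genes), other scalings and filters, and each library left out were alternatives. Scripts were tested on simulated data. Exact permutation tests used scipy 1.17.1. Exon overlap used GENCODE M21. Within each group every 2 libraries differed by more than sampling noise (chi-square over its degrees of freedom, 4.56 to 47.8).

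The 9 genes and all lists were chosen with earlier results of these data known. Named genes are the 9, a set list of related genes, the ends of each pathway list, genes overlapping exons of the 9, and the 5 nearest profiles to Runx2 and Sp7. Of the list genes, Tle5 was not found by that name. Some items covered by this rule are not reported here.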

Additional observations from a re-analysis of the deposited data

How the results depend on the processing

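All 8 tested factors kept a positive log2 fold change in all 17 alternative fits, of which the removal of the gene-length trend was chosen after seeing the data. In edgeR, scaling by library totals, the upper quartile or the size factors of DESeq2, at least 10 counts in every library, the gene-length trend removed, and limma on log2(FPKM + 0.1) gave 0 factors and 0 genes at an adjusted p of 0.05, as edgeR did. Adjusted p over the alternatives ranged from 0.00202 to 0.792 for Runx2, 1.60e-10 to 0.766 for Sp7, 2.15e-11 to 0.770 for Creb3l1, 0.000665 to 0.830 for Dlx3 and 0.0146 to 0.852 for Twist1. Dlx6 and Msx1 were called in no fit.

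Genes called numbered 1027 with no filter on low counts, 261 with DESeq2, 2 with limma on log2(FPKM + 1) and 21 with libraries scaled to the stromal markers, and the factors called among them 5, 4, 0 and 0. At an unadjusted p under 0.05, where edgeR gave 1963 genes and 6 factors, the stromal scaling gave 6011 genes (208 higher and 5803 lower, against 1110 and 853) and 3 factors, with a median of the factors of 0.31 in place of 0.69 and 3 of them without overlap in place of 6, and no filter gave 3057 genes. The cause of the change with no filter was not tested. Leaving out each library gave from 0 to 2283 genes and from 0 to 6 factors at an adjusted p of 0.05, the highest without control replicate 3 (13 genes and 0 factors without Ni replicate 2), and from 868 to 4125 genes at an unadjusted p under 0.05.

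Deviations from the group means of libraries with the same number correlated at 0.01, 0.26 and 0.14, not all above 0.1, and the numbers were not taken as pairs. A replicate block gave 315 genes and 3 factors (Runx2, Sp7 and Creb3l1) at an adjusted p of 0.05. Depth limits Msx2, with at most 4 counts in a library, and leaves Dlx3, Dlx6 and Msx1 with 25 to 120 counts.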
